A study of Homo sapiens with 11 samples.

Results

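ATF4, ATF5, DDIT3, TRIB3, CHAC1, ASNS, PSAT1, PHGDH, CEBPB and PPP1R15A are 10 genes of the integrated stress response and of serine synthesis, taken from the 60676 genes counted in these libraries. They were chosen by their counts and fold changes in these same libraries, for a fall after 6 h of hypoxia and a partial return later, so their values are given as a description, and the calls made on them are counted once, with nothing read from them. All 10 passed the filter on low counts, as did 19981 genes in total. The counts of RWPE1 cells showed such a fall and return in DDIT3, PPP1R15A and TRIB3, whereas CHAC1, ASNS and PSAT1 were lower at 6 h and did not come back, ATF5 was higher at every time of hypoxia, and ATF4 and PHGDH stood above normoxia at 24 h, although the 24 h values of these last 3 were below normoxia when libraries were scaled by size alone.

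RWPE1 is a non-tumorigenic line of immortalized prostate epithelial cells, grown here in serum-free keratinocyte medium with pituitary extract and EGF. The transcriptome of untreated normoxic cells (3 libraries) was compared with that of cells held at 1% O2 for 6 h (3 libraries), 12 h (3 libraries) or 24 h (2 libraries). The medium of the hypoxic cells also held 10 mM HEPES, so oxygen and buffer cannot be told apart in any comparison with normoxia. All samples are of 1 cell line, and nothing states whether replicates came from separate cultures, so errors and p-values measure only the spread between these libraries. The libraries held 27496009 to 49488345 counts. Scaling factors by the trimmed mean of M values (TMM) ran from 1.29 to 1.32 in normoxia, from 0.910 to 1.07 at 6 and 12 h, and were 0.851 and 0.539 at 24 h. The basal markers KRT5 and KRT14 averaged 7277 and 1203 counts per 1000000 (CPM) in normoxia, while the luminal marker KLK3 was at 0 in every library. The summed CPM of 5 luminal markers, nearly all of it KRT8 and KRT18, was 228 to 259 in normoxia and 620 to 810 at 6 h. It was 820 to 891 in the 12 h libraries and 1066 to 1798 in the 24 h libraries. The sum of 5 basal markers was 7993 to 10775 in normoxia and 11298 to 16807 at 6 h. This basal sum was 17507 to 20078 at 12 h and 15810 to 21217 at 24 h. Within it TP63 went from 218 to 259 CPM in normoxia to 67.0 to 83.3 at 6 h. The part of both sums in the changes below was not tested. Of 7 fibroblast, endothelial and leukocyte markers COL1A1 alone exceeded 1 CPM, with 47.1 to 60.5 CPM in normoxia and 27.7 to 30.2 CPM at 24 h.

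ATF4 is a bZIP transcription factor whose protein is made when kinases that sense amino acid shortage, unfolded protein, heme loss or double-stranded RNA phosphorylate eIF2 alpha and slow translation elsewhere. ATF4 then binds, with C/EBP partners, a composite DNA element (the C/EBP-ATF response element, CARE) near genes for amino acid synthesis, amino acid uptake and tRNA charging, and near genes that end or redirect the response, such as PPP1R15A, TRIB3, DDIT3 and CHAC1. PHGDH and PSAT1 catalyse the opening steps by which cells make serine from a glycolytic intermediate. Because much of this control is exerted on translation, the RNA level of ATF4 is not a measure of its protein, which was not assayed here.

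Only CHAC1 and ASNS among the 10 carry the core of that element, TGATGNAA, close to a start site. RefSeq promoters (GRCh38.p14, 250 bases before to 50 bases after each start) were present for all 10 and were searched on both strands. The core lay 209 bases before the start of CHAC1 and 68 bases before a start of ASNS. The windows of 30 bases around these sites are shown as the only such sites among the 10, with the core in capitals and each sequence read 5′ to 3′ on the strand that carries it.
CHAC1 (chr15:40953251-40953280, minus strand): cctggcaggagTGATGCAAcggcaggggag
ASNS (chr7:97872458-97872487, minus strand): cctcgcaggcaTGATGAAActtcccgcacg
The same core was found in 3.62% of 35116 promoters, that is in 4.46% of 27305 genes, and in 19 of 55 other ATF4 pathway genes that had a promoter sequence (34.5%). The search of the other 8 genes found no match in their windows, which says only that these letters are absent there. DDIT3, TRIB3 and PSAT1, with no match in these windows, were below every normoxic library at all 3 times, as CHAC1 and ASNS were. ATF4, ATF5, PHGDH, CEBPB and PPP1R15A, also with no match, were not. Since the 10 were chosen for their fall, nothing is read from this. Bases outside the windows were not searched, and the part of the core in these changes was not tested. In CARS1, TARS1, SLC1A5 and ATF3 the core lay in the window of 1 start and was absent from those of their other starts. For comparison, the windows of 6 further genes described below are given, among them AARS1 and HERPUD1, which fell, and TARS1, which rose by 24 h.
AARS1 (chr16:70289675-70289704, plus strand): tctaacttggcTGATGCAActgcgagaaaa
CARS1 (chr11:3057407-3057436, plus strand): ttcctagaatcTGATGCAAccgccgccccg
TARS1 (chr5:33440956-33440985, minus strand): gctggaccagcTGATGCAAtcgaaaggcgc
SLC1A5 (chr19:46784893-46784922, minus strand): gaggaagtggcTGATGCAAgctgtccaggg
ATF3 (chr1:212565205-212565234, plus strand): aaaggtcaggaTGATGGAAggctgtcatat
HERPUD1 (chr16:56931955-56931984, minus strand): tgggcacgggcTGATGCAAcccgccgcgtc
The core of the hypoxia response element, ACGTG, occurred in 21.4% of all promoters, that is in 24.9% of genes, and in 1 of the 10 genes, ATF4, where a palindrome shown in capitals held it on both strands 82 bases before the start.
ATF4 (chr22:39520465-39520494, plus strand): ggaggagacggtCACGTGgtcgcggcggaa

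The transcription factor genes ATF4 and ATF5 lay on opposite sides of normoxia at 6 h. ATF4 RNA (chromosome 22, 39519695 to 39522683, plus strand) stood at 204, 216 and 212 CPM in the normoxic libraries, 153, 176 and 169 at 6 h, 246, 199 and 222 at 12 h, and 417 and 314 at 24 h. Every 6 h library lay below and both 24 h libraries lay above all normoxic libraries, whereas the 12 h libraries overlapped them. The log2 fold change against normoxia was -0.34 (SE 0.15) at 6 h, 0.08 (SE 0.15) at 12 h and 0.79 (SE 0.16) at 24 h, and with libraries scaled by their size alone the 24 h value was -0.075. ATF5 (chromosome 19, 49928702 to 49933935, plus strand), a relative of ATF4 under the same translational control, read 18.3, 17.8 and 17.7 CPM in normoxia, 32.3, 36.7 and 29.1 at 6 h, 28.1, 26.5 and 29.4 at 12 h, and 25.1 and 31.0 at 24 h. No hypoxic library overlapped normoxia. ATF5 was the only one of the 10 with a 6 h log2 fold change above 0 when all libraries were used (0.87, SE 0.14). It had 0.64 (SE 0.14) at 12 h and 0.65 (SE 0.15) at 24 h, although the last value was -0.30 with library size alone. Of its exonic bases 19.5% lie under NUP62, a nuclear pore gene on the other strand, and the strand setting of the counting is not given in the sources used here. NUP62 had 2386 to 3342 counts in the 6 h libraries, in which ATF5 had 946 to 1536. The log2 fold change of NUP62 was 1.03 at 6 h, 0.56 at 12 h and -0.60 at 24 h, and its part in the level of ATF5 was not tested.

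DDIT3 and CEBPB encode C/EBP family factors. DDIT3 (CHOP, chromosome 12, 57516588 to 57521737, minus strand), which promotes death under prolonged stress, had the widest change of the 10. Its level was 81.4, 115 and 89.1 CPM in normoxia, 1.78, 1.82 and 1.38 at 6 h, 4.43, 11.6 and 18.5 at 12 h, and 15.1 and 13.5 at 24 h. The groups at normoxia, 6 h and later times did not overlap, and the 12 h libraries spread over a range that enclosed the 24 h libraries. DDIT3 was 57.8-fold lower at 6 h (log2 fold change -5.85, SE 0.44), 8.19-fold lower at 12 h and 6.63-fold lower at 24 h. Against 6 h it was 7.05-fold higher at 12 h and 8.72-fold higher at 24 h, and every hypoxic library stayed below every normoxic one. Without 12 h replicate 3, the highest of its group, the 12 h log2 fold change against normoxia was -3.56 in place of -3.03. Of its exonic bases 27.2% lie under MARS1 on the other strand. MARS1 had 3208 to 6286 counts in the 6 h libraries, in which DDIT3 had 52 to 73. The level of MARS1 was 142 to 172 CPM in normoxia and 110 to 122 at 6 h. MBD6, which lies over 4.44% of these bases on the other strand, was at 112 to 128 CPM in normoxia and 47.9 to 58.1 at 6 h. The part of either gene in the level of DDIT3 was not tested.

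CEBPB (chromosome 20, 50190830 to 50192668, plus strand), a partner of ATF4 at composite elements, read 94.6, 95.6 and 95.3 CPM in normoxia, 50.9, 83.5 and 117 at 6 h, 64.8, 57.4 and 59.4 at 12 h, and 46.7 and 71.4 at 24 h. The 6 h libraries fell on both sides of normoxia, and all 12 h and 24 h libraries were below it. The 6 h log2 fold change of -0.18 (SE 0.24) was 0.079 without 6 h replicate 1 and -0.50 without 6 h replicate 3. At 12 and 24 h it was -0.65 (SE 0.24) and -0.69 (SE 0.28). CEBPB therefore showed neither a settled fall at 6 h nor a return. CEBPB-AS1, transcribed across 12.6% of its exonic bases on the other strand, had 8 to 74 counts a library.

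PPP1R15A, TRIB3 and CHAC1 act in the later part of the response. PPP1R15A (GADD34, chromosome 19, 48872212 to 48876059, plus strand) directs a phosphatase to eIF2 alpha and so restores translation. It stood at 95.8, 103 and 97.3 CPM in normoxia, 20.1, 18.7 and 27.9 at 6 h, 83.7, 74.6 and 84.7 at 12 h, and 167 and 62.0 at 24 h. The 12 h libraries lay just under normoxia and the pair at 24 h lay on both sides of it. PPP1R15A was 4.44-fold lower at 6 h (log2 fold change -2.15, SE 0.29), and 3.64-fold higher at 12 h than at 6 h. At 24 h against normoxia it was 0.22 (SE 0.30), which became -0.73 without 24 h replicate 1, 0.74 without 24 h replicate 2 and -0.56 with library size alone. Its level at 24 h was therefore not settled by these libraries.

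TRIB3 (chromosome 20, 362835 to 397559, plus strand), a pseudokinase that restrains ATF4 and AKT signalling, returned later. Its values were 369.6, 406 and 389.9 CPM in normoxia, 99.7, 134 and 119 at 6 h, 124, 103 and 122 at 12 h, and 267 and 295 at 24 h. The 6 h and 12 h libraries overlapped each other, and the 24 h libraries stood between them and normoxia. TRIB3 was 3.31-fold lower at 6 h, 3.34-fold lower at 12 h and 1.38-fold lower at 24 h, with log2 fold changes of -1.73 (SE 0.15), -1.74 (SE 0.15) and -0.47 (SE 0.16). From 6 h it changed by -0.015 at 12 h and by 1.26 at 24 h.

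CHAC1 (chromosome 15, 40952962 to 40956512, plus strand), which degrades glutathione, was scarce in all libraries. It read 8.85, 8.08 and 10.2 CPM in normoxia, 1.33, 0.941 and 0.834 at 6 h, 0.541, 1.10 and 2.22 at 12 h, and 1.41 and 0.436 at 24 h. The hypoxic libraries overlapped among themselves and none came near normoxia. The log2 fold change was -3.14 (SE 0.43) at 6 h, -2.77 (SE 0.42) at 12 h and -3.24 (SE 0.54) at 24 h. These rest on 303 to 423 counts in normoxia and 8 to 97 in hypoxia. The 12 h change from 6 h, 0.37, was -0.31 without 12 h replicate 3, and the 24 h change from 6 h, -0.099, was -1.24 without 24 h replicate 1 and 0.47 without 24 h replicate 2.

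ASNS, asparagine synthetase (chromosome 7, 97851677 to 97872542, minus strand), stood at 4.18, 3.60 and 3.37 CPM in normoxia, 1.40, 1.62 and 1.44 at 6 h, 1.89, 1.51 and 1.80 at 12 h, and 1.11 and 1.25 at 24 h. All hypoxic libraries were below all normoxic libraries, and both 24 h libraries were the lowest of the 11. The log2 fold change was -1.32 (SE 0.20), -1.10 (SE 0.20) and -1.65 (SE 0.25) at the 3 times. These values rest on 23 to 181 counts a library. Of the principal ASNS transcript 99.5% lies under exons of the unnamed gene ENSG00000284707 on the same strand, which had 7 to 36 counts. How reads shared by such genes were handled is not given in the sources used here, so the level of ASNS is not set against that of other genes.

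The serine synthesis enzymes PHGDH and PSAT1, which act one after the other, differed. PHGDH (chromosome 1, 119648411 to 119744218, plus strand) read 193, 178 and 208 CPM in normoxia, 169, 217 and 181 at 6 h, 241, 221 and 236 at 12 h, and 283 and 387 at 24 h. The 6 h libraries overlapped normoxia and those at 12 and 24 h were above it. Its log2 fold change was -0.031 (SE 0.15) at 6 h, 0.27 (SE 0.15) at 12 h and 0.80 (SE 0.17) at 24 h, and the values at 12 and 24 h were -0.20 and -0.17 with library size alone. PSAT1 (chromosome 9, 78297125 to 78330093, plus strand) read 214, 152 and 211 CPM in normoxia, 113, 111 and 101 at 6 h, 69.8, 73.7 and 78.8 at 12 h, and 56.8 and 61.1 at 24 h. No 2 groups overlapped, and each time was lower than the one before. Its log2 fold change went from -0.83 (SE 0.15) through -1.38 (SE 0.15) to -1.71 (SE 0.17).

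**Figure D1:**
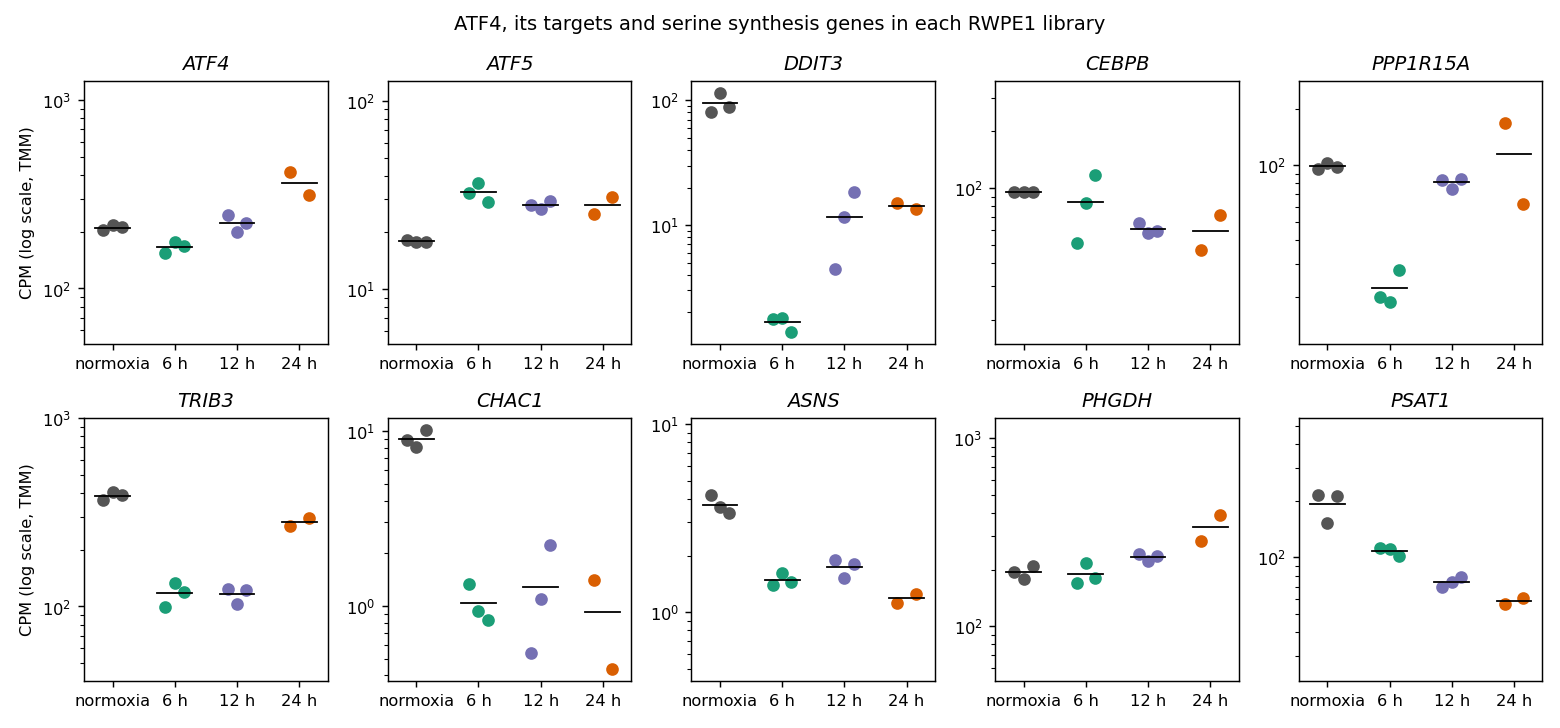
Normalized level of each of the 10 genes in the 11 libraries (points, CPM on a log axis with TMM scaling) by group, with a line at the group mean. With this scaling DDIT3, PPP1R15A and TRIB3 are low at 6 h and nearer to normoxia later, CHAC1, ASNS and PSAT1 stay low, ATF5 is higher in hypoxia, and the 2 libraries at 24 h lie far apart for PPP1R15A (62.0 and 167 CPM).

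A gene was called where edgeR's quasi-likelihood test gave a Benjamini-Hochberg adjusted p under 0.05 over the 19981 genes tested. At 6 h against normoxia 6 of the 10 were called lower and 1 higher, beside 27.7% and 25.1% of all genes. At 12 h 6 were lower and 1 higher (27.1% and 24.2% of all genes), and at 24 h 6 were lower and 3 higher (31.3% and 29.9%). From 6 h to 12 h none of the 10 was called lower and 2 higher (3.07% and 1.88% of all genes), and from 6 h to 24 h 1 was lower and 5 were higher (20.3% and 22.1%). Since the 10 were proposed for this pattern, nothing is read from these counts. The median of their log2 fold changes was -1.08, -0.87 and -0.58 at 6, 12 and 24 h, against -0.0021, -0.033 and -0.065 over all genes. With library size alone the medians of all genes moved to -0.32, -0.50 and -0.97, and 27.6%, 20.0% and 16.4% of the calls were higher in place of 47.6%, 47.2% and 48.8%. From 6 h, 14.3% and 14.7% of the calls were then higher at 12 and 24 h, in place of 38.0% and 52.2%. In bulk RNA, fewer expressing cells and less RNA per cell cannot be told apart. The 3 comparisons with normoxia share its libraries, and both comparisons with 6 h share those libraries.

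**Figure D2:**
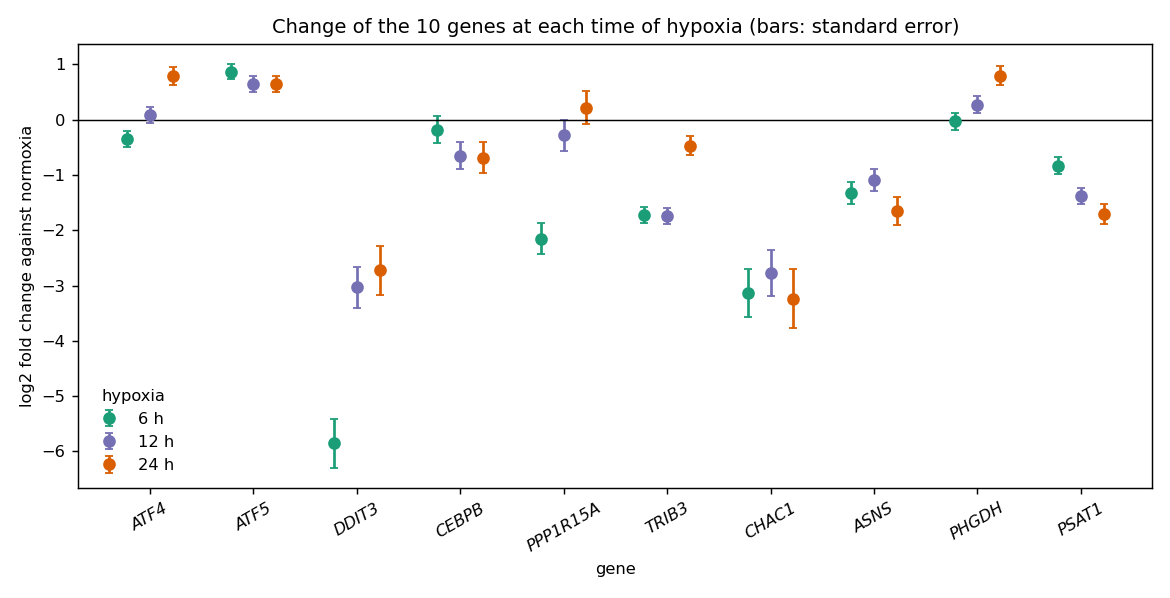
Log2 fold change against normoxia (vertical axis, edgeR) of the 10 genes at 6, 12 and 24 h of hypoxia, with bars of 1 standard error. DDIT3 runs from -5.85 to -2.73, TRIB3 keeps -1.73 and -1.74 before -0.47 at 24 h, and ATF4 and PHGDH reach 0.79 and 0.80 at 24 h (-0.075 and -0.17 with library size alone).

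Levels per kilobase of the principal transcript placed TRIB3 first in normoxia (165 ± 7.72 CPM per kb, SD, n = 3), before ATF4 (149 ± 4.30), DDIT3 (105 ± 19.3), PHGDH (103 ± 7.99) and PSAT1 (87.3 ± 15.9). The ranges of 1 SD around DDIT3, PHGDH and PSAT1 overlapped. CEBPB followed (51.8 ± 0.290), then PPP1R15A (42.0 ± 1.69), ATF5 (8.93 ± 0.153) and CHAC1 (5.94 ± 0.697). At 6 h ATF4 led (117 ± 8.13), followed by PHGDH (101 ± 13.3), whose range of 1 SD overlapped that of ATF4. Those of TRIB3 (49.9 ± 7.28), PSAT1 (49.1 ± 2.84) and CEBPB (45.6 ± 18.0) overlapped likewise, and DDIT3 stood at 1.84 ± 0.265, below ATF5 (16.3 ± 1.89) and PPP1R15A (9.45 ± 2.10). At 24 h ATF4 (258 ± 51.2, n = 2), PHGDH (180 ± 39.4) and TRIB3 (119 ± 8.31) were the 3 highest. Levels per kilobase use 1 transcript a gene, although the counts cover all of its exons.

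Over the 11 libraries, log2 CPM of TRIB3 and DDIT3 followed the mean of the other 9 genes most closely (Pearson r 0.91 and 0.88), and ATF5 ran against it (r -0.89). CHAC1 with ASNS (0.87), ASNS with PSAT1 (0.86) and CHAC1 with PSAT1 (0.84) formed the pairs most alike, followed by DDIT3 with TRIB3 (0.83). ATF4 was most like PHGDH (0.79). These coefficients describe 4 groups sharing libraries and scaling and carry no test. Of 13929 other genes, those most like the mean pattern of the 10 were PLCD1 (r 0.98), PRIM1 (0.98), COX18 (0.97), DELE1 (0.97) and PHF19 (0.97). The list depended on the coefficient, since by Spearman's rho PLCD1 ranked 2, PRIM1 3.5, DELE1 25, PHF19 39 and COX18 57.5. DELE1 relays mitochondrial stress to an eIF2 alpha kinase. It averaged 64.7 ± 2.42 CPM in normoxia, 24.6 ± 1.99 at 6 h, 33.7 ± 2.21 at 12 h (SD, n = 3 each) and 47.6 ± 1.18 at 24 h (n = 2), with no overlap between any of these groups. As DELE1 was picked here for its likeness to the 10, these levels are a description.

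The leaders of the principal transcripts were read from GENCODE, since upstream reading frames make translation of ATF4 depend on eIF2. Upstream ATG codons were present in 5 of the 10 genes, 3 each in ATF4 and DDIT3 and 2 each in ATF5, PPP1R15A and TRIB3, and in 42% of 19580 coding transcripts. A frame that overlaps the coding start was found in ATF4, ATF5 and DDIT3, that is in 30% of the 10 against 12.8% of all and 1.39% of 72 other ATF4 pathway genes. CEBPB, CHAC1, ASNS, PHGDH and PSAT1 had no upstream ATG. The genes with upstream ATGs included that with the highest log2 fold change at 6 h, ATF5, and that with the lowest, DDIT3. Pseudogenes also took reads, as ATF4P3 had 493 to 1300 counts a library and ATF4P4 365 to 845, beside 4489 to 9743 for ATF4, and ATF4P1 and ATF4P2 had the same counts as each other in all 11 libraries. PSAT1P3 had 18 to 176, beside 1122 to 9267 for PSAT1.

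Among 18 kinases, eIF2 and eIF2B subunits and their regulators, 4 were called lower and 5 higher at 6 h (22.2% and 27.8%, beside 27.7% and 25.1% of all genes), and 6 lower and 5 higher at 24 h (33.3% and 27.8%, beside 31.3% and 29.9%), so that these shares lay near those of all genes. EIF2AK3 (PERK, the kinase of the endoplasmic reticulum) rose at 6 h (13.5 ± 2.01 to 31.3 ± 1.37 CPM, SD, n = 3 each, log2 fold change 1.22, SE 0.20, edgeR adjusted p = 0.000347), whereas EIF2AK4 (GCN2, the sensor of amino acid shortage) fell (40.4 ± 1.05 to 21.3 ± 2.35, -0.93, SE 0.15, edgeR adjusted p = 0.000214). IMPACT, an inhibitor of GCN2, fell by 1.35 (SE 0.18, edgeR adjusted p = 6.44e-05) and DELE1 by 1.40 (SE 0.12, edgeR adjusted p = 3.29e-06). EIF2S1, which encodes eIF2 alpha, and EIF2B2, a subunit of its exchange factor, rose by 0.90 and 0.91 at 6 h (SE 0.14 and 0.15, edgeR adjusted p = 0.000185 and 0.000248) and stood at 1.41 and 1.70 at 24 h, where the call of EIF2S1 was lost with library size alone.

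The further lists follow known roles in the ATF4 pathway, namely serine and one-carbon metabolism, other amino acid synthesis, amino acid transport, tRNA charging and stress effectors. Of their 72 genes 68 were tested. At 6 h 25 were called lower and 12 higher (36.8% and 17.6%, beside 27.7% and 25.1% of all genes), with a median log2 fold change of -0.33. At 12 h 27 were lower and 11 higher (39.7% and 16.2%, beside 27.1% and 24.2%), and at 24 h 26 were lower and 16 higher (38.2% and 23.5%, beside 31.3% and 29.9%), with 48 lower when only library size was used. From 6 h to 12 h 1 was lower and 1 higher (1.47% each, beside 3.07% and 1.88% of all genes). From 6 h to 24 h 12 were lower and 17 higher (17.6% and 25%, beside 20.3% and 22.1%), the latter 4 with library size alone and 5 when only those 2 groups were fitted. The 18 tested genes with the CARE core in a promoter had a median of -0.44 at 6 h, with 9 called lower and 0 higher. The 34 without it had a median of -0.16, with 10 lower and 9 higher. At 12 h the calls were 10 lower and 2 higher with the core, and 11 and 7 without it. At 24 h they were 8 and 3 with it, and 11 and 10 without it. From 6 h to 24 h the medians were 0.028 and 0.015. Tested genes with no promoter sequence are in neither set. The difference between these sets was not tested.

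**Figure D3:**
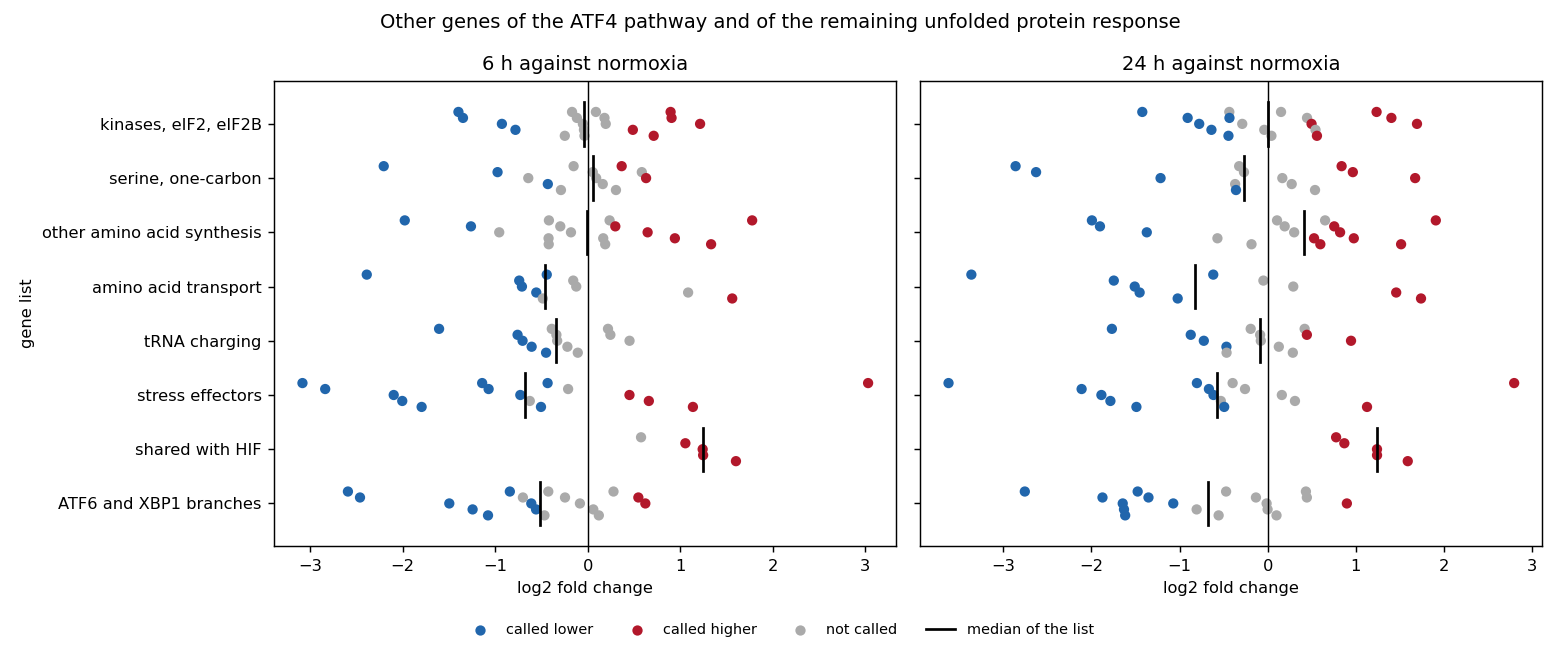
Log2 fold change (horizontal axis) of the tested genes of 8 lists at 6 h (left) and 24 h (right) against normoxia, with genes called lower in blue, higher in red, not called in grey, and a black line at the median of each list. The stress effectors have the lowest median at 6 h (-0.68), with CEBPD at 3.03 on the far right, and the 5 genes shared with the hypoxia-inducible factors lie right of 0 at both times.

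Serine and one-carbon genes were mixed, with 3 lower and 2 higher of 13 at 6 h (23.1% and 15.4%, beside 27.7% and 25.1% of all genes). PSPH, the phosphatase that completes serine synthesis, fell from 20.4 ± 0.725 to 10.4 ± 1.71 CPM (log2 fold change -0.97, SE 0.16, edgeR adjusted p = 0.00036) and stood at -1.22 at 24 h, as PSAT1 was low and PHGDH was not. The mitochondrial enzymes SHMT2 and MTHFD2 had log2 fold changes of -0.15 and -0.29 at 6 h (edgeR adjusted p = 0.347 and 0.104). SHMT2 then rose to 0.97 at 24 h (SE 0.14, edgeR adjusted p = 0.000104), a call lost with library size alone, while MTHFD2 stood at 0.17 (edgeR adjusted p = 0.373). GLDC, of the glycine cleavage system, rose by 0.63 at 6 h (edgeR adjusted p = 0.0401), a call lost without normoxia replicate 2 or 3, 6 h replicate 1 or 2, or 12 h replicate 2, and MTHFD2L was at 0.59 (edgeR adjusted p = 0.0596).

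Of 16 other amino acid synthesis genes 2 were lower and 5 higher at 6 h. These were 12.5% and 31.25% of the list, beside 27.7% and 25.1% of all genes. CBS, which starts transsulfuration, fell by 1.26 (SE 0.20, edgeR adjusted p = 0.000198). GLUL, glutamine synthetase, rose from 70.5 ± 3.94 to 242 ± 27.6 CPM (1.78, SE 0.15, edgeR adjusted p = 2.34e-06) and OAT, ornithine aminotransferase, by 1.34 (SE 0.13, edgeR adjusted p = 6.16e-06). Of 10 transporters 5 were lower and 1 higher (50% and 10%). SLC7A11, the cystine importer, fell from 32.2 ± 1.06 to 6.13 ± 0.832 CPM at 6 h (-2.39, SE 0.25, edgeR adjusted p = 1.26e-05) and to 3.08 ± 1.88 at 24 h (n = 2). SLC7A5 fell by 0.74 (SE 0.22, edgeR adjusted p = 0.013), a call lost without 6 h replicate 1, and SLC38A2, which imports neutral amino acids, rose by 1.56 (SE 0.29, edgeR adjusted p = 0.000666). SLC1A5, with a CARE core near 1 of its starts, was at -0.12 (edgeR adjusted p = 0.532).

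Among 13 tRNA charging genes 5 were lower and 0 higher at 6 h (38.5% and 0%, beside 27.7% and 25.1% of all genes). AARS1, which charges alanine tRNA and carries the core shown above, fell from 522 ± 33.3 to 171 ± 24.3 CPM (-1.61, SE 0.21, edgeR adjusted p = 4.74e-05) and CARS1 by 0.76 (SE 0.18, edgeR adjusted p = 0.00405). WARS1 and TARS1 were at 0.25 and 0.45 (edgeR adjusted p = 0.362 and 0.0632), and TARS1 rose to 0.95 at 24 h (SE 0.21, edgeR adjusted p = 0.00197), a call lost with library size alone. Of 16 stress effectors 10 were lower and 4 higher (62.5% and 25%). GDF15, a secreted stress signal, fell from 86.7 ± 8.64 to 10.1 ± 7.80 CPM (-3.08, SE 0.40, edgeR adjusted p = 5.58e-05), the peptide hormone gene ADM2 by 2.84 (SE 0.30, edgeR adjusted p = 1.29e-05) and the transcription factor gene ATF3 by 2.10 (SE 0.31, edgeR adjusted p = 0.00012). CEBPD, another C/EBP factor, rose from 5.42 ± 0.413 to 44.4 ± 20.2 CPM (3.03, SE 0.33, edgeR adjusted p = 1.45e-05), and MAP1LC3B, of the autophagosome, by 1.14 (SE 0.16, edgeR adjusted p = 8.9e-05).

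Of 5 genes that hypoxia-inducible factors are also known to induce, 4 were higher at 6 h and 5 at 24 h. These were 80% and 100% of the list, beside 25.1% and 29.9% of all genes. DDIT4, an inhibitor of mTORC1, rose by 1.25 (SE 0.24, edgeR adjusted p = 0.000975), STC2 by 1.60 (SE 0.19, edgeR adjusted p = 2.49e-05) and ERO1A, an oxidase of the endoplasmic reticulum, by 1.06 (SE 0.13, edgeR adjusted p = 3.2e-05) at 6 h. VLDLR was at 0.58 (edgeR adjusted p = 0.0904) and at 24 h at 0.78 (edgeR adjusted p = 0.0419), the latter -0.050 with library size alone. That call was also lost without normoxia replicate 1 or 2, 6 h replicate 2, 12 h replicate 2 or 3, or 24 h replicate 1. In the other branches of the unfolded protein response 8 of 18 genes were lower and 2 higher at 6 h. These were 44.4% and 11.1% of the list, beside 27.7% and 25.1% of all genes. ERN1 (IRE1, the kinase that splices XBP1 RNA) fell by 2.59 (SE 0.18, edgeR adjusted p = 6.9e-07) and HERPUD1, which serves degradation of misfolded protein, by 2.46 (SE 0.26, edgeR adjusted p = 1.22e-05). The chaperone genes HSP90B1 and PDIA6 rose by 0.62 and 0.55 (edgeR adjusted p = 0.0422 and 0.0176), calls that were lost with library size alone and without normoxia replicate 1, normoxia replicate 3 or 6 h replicate 3. That of HSP90B1 was also lost without 6 h replicate 1 or 12 h replicate 2 or 3.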

How the data were processed

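The authors aligned trimmed reads with STAR to hg38 and deposited whole-number counts per Ensembl gene from featureCounts, neither filtered nor normalized. RNA over 200 bases had been built into 12 stranded libraries in 1 batch and read as single ends of 75 cycles. Of these, 11 were analysed here. The strand and multiple-match settings are not given in the sources used here.

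Counts were tested in edgeR 4.0.16 (R 4.3.3) by quasi-likelihood fits over all 11 libraries, with time as the only factor, TMM scaling and filterByExpr. The prior count was 2 and the common biological coefficient of variation 19.6%. SE is the absolute log2 fold change over the square root of F. limma 3.58.1 and DESeq2 1.42.0 were alternatives. Of the gene identifiers, 60357 were found in GENCODE 44.

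The members, lists and tests were chosen with earlier results of these data known. Besides the 10 genes, the text names from each list the 2 lowest and 2 highest at 6 h (mean of at least 1 CPM), 8 set genes (EIF2AK3, EIF2AK4, EIF2S1, ATF3, PSPH, SHMT2, MTHFD2, SLC7A11), overlapping genes and pseudogenes, and the 5 most alike in pattern. Values of some genes that this rule takes are not reported here.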

Additional observations from a re-analysis of the deposited data

Results flagged for a closer look

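The effect of hypoxia differed between 24 h and 6 h (edgeR test of 24 h against 6 h, adjusted p under 0.05) for 14 of the named genes outside the 10. In the same test 20.3% of all genes were called lower and 22.1% higher, so nothing is read from this count. Most of the 14 were named for a low or high change at 6 h, and this test uses the same 6 h libraries. That choice by itself tends to make low genes appear to rise and high genes appear to fall from 6 h to 24 h. The log2 fold change of 24 h against 6 h was positive in DELE1 (0.95), EIF2B2 (0.79), CARS1 (0.67), GDF15 (1.30), HERPUD1 (0.83), EIF2S1 (0.51), ATF3 (1.70), SHMT2 (1.12) and MTHFD2 (0.45), of which EIF2S1 and MTHFD2 were at -0.064 and -0.10 with library size alone. It was negative in EIF2AK3 (-0.67), GLDC (-0.96), CBS (-0.73), SLC7A11 (-0.98) and SLC7A5 (-1.01). Of these calls, ATF3, SHMT2 and SLC7A5 were kept under every alternative and without any single library. DELE1 lost its call only with library size alone, and EIF2B2 only so or with those 2 groups fitted alone. As DELE1 was picked for its likeness to the 10, its change is a description. The others also lost their calls without 1 or more single libraries. ATF4 was below every normoxic library in all 3 libraries at 6 h and above them in both at 24 h, with 1.14 between the times, and as ATF4 is 1 of the 10 this is given as a description.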

How the results depend on the processing

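With limma-voom, DESeq2 and median-of-ratios scaling, the log2 fold changes of the 10 genes in all 5 comparisons moved by less than the spread between replicates. Scaling by library size alone moved their medians to -1.39, -1.35 and -1.53 at 6, 12 and 24 h, and that of 24 h against 6 h to -0.22 in place of 0.36. Among values called with either scaling, it turned those at 24 h against normoxia of ATF4 (-0.075), ATF5 (-0.30), PHGDH (-0.17), VLDLR (-0.050), HSP90B1 (-0.014) and MTHFD2 (-0.71), and those at 24 h against 6 h of SLC1A5 (-0.55), EIF2S1 (-0.064) and MTHFD2 (-0.10). Of values not called, it also turned those at 24 h against normoxia of PPP1R15A (-0.56), EIF2AK3 (-0.28), MTHFD2L (-0.45), WARS1 (-0.59) and PDIA6 (-0.47), and those at 12 h of ATF4 (-0.40) and PHGDH (-0.20), among others. It called 48 other pathway genes lower at 24 h, and 0 and 4 higher from 6 h to 12 and 24 h. With only the 2 groups fitted, 5 were higher from 6 h to 24 h. From 6 h to 12 h 989 genes were called by edgeR with all libraries, against 1922 with DESeq2, 1674 without a filter and 1876 with only those 2 groups, and from 6 h to 24 h 8479 against 3916 with only those 2 groups. The cause of these moves was not tested.

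Deviations of same-numbered libraries from their group means correlated at -0.156 to 0.207 over 15 pairs, 2 of them above 0.1. Deviations cancel within a group, so these values are not independent and cannot settle whether replicate numbers paired the libraries. With the replicate block 510 genes were called from 6 h to 12 h, and 0 other pathway genes were higher.

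Leaving out 1 library gave 8657 to 13115 genes called at 6 h, 8176 to 12655 at 12 h, 10759 to 13152 at 24 h, 61 (without 12 h replicate 3) to 3649 (without 24 h replicate 2) from 6 h to 12 h and 7019 to 10544 from 6 h to 24 h. The other pathway genes numbered 21 to 34, 20 to 34, 23 to 32, 0 to 5 and 11 to 16, and the medians of the 10 were -1.17 to -0.99, -0.93 to -0.84, -0.80 to -0.57, 0.071 to 0.32 and 0.30 to 0.53. With 2 libraries at 24 h, the levels of PPP1R15A and CHAC1 there rest on single libraries, and a lone library left at 24 h was taken to vary like the other groups.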
